A study of Mus musculus with 16 samples.

Results

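The response of control muscle stem cells (MuSCs) to muscle injury was read from 8 of the 16 libraries of the series, selected by their labels: 4 libraries of control MuSCs of uninjured mice and 4 taken 3 days post-injury (3 DPI) by notexin, a snake toxin that destroys muscle fibres. The other 8 libraries hold MuSCs that lack TRF2, a telomere-binding protein. They enter only an alternative analysis that fits all 16 libraries together. The labels give the genotype of the control mice as wild type, the cells as primary MuSCs and the tissue as skeletal muscle. In the study the deletion is driven by tamoxifen-induced Pax7-CreERT2 on floxed alleles, and the sources used here do not state whether the control mice carried either allele or received tamoxifen. Notexin was given into the tibialis anterior muscle. Tamoxifen was started in young adult mice in the study, and the age and sex of the mice behind each library, or how many were pooled, are not given in the sources used here. The mice were on a C57BL/6 background, and cells were sorted as CD45-, CD31-, CD11b-, Sca1- and α7-integrin+ with VCAM+ or CD34+.

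MuSCs rest between the muscle fibre and its basal lamina, where Notch signalling from the fibre, growth inhibitors and a collagen-rich niche keep them out of the cell cycle. After damage they leave quiescence, enter the cell cycle as myoblasts that make MyoD, and either fuse into new fibres under myogenin and the MEF2 factors or return to quiescence. Monocytes enter the damaged muscle at the same time, become macrophages and clear the debris.

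Each uninjured library held 909445 to 1351095 estimated counts and each 3 DPI library 620406 to 1304061. At least 1 count was found for 20938 to 21136 genes in uninjured and 21354 to 21879 genes in 3 DPI libraries. The 50 most abundant genes took 19.1 to 23.74% of the counts in uninjured and 13.25 to 15.42% at 3 DPI. Nothing in the labels says that the libraries of a group came from separate mice, so the p-values measure the spread between these libraries only. Uninjured replicate 3 stood apart on the second principal component, at -69.67 where the other 7 libraries lay between -14.52 and 26.99, and every count of called genes below was repeated without it. The first component, with 50.6% of the variance, separated the groups, with uninjured libraries at -60.25 to -49.45 and 3 DPI libraries at 49.31 to 61.65.

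A gene was called where its adjusted p-value in edgeR's quasi-likelihood test was under 0.02 and its fold change over 1.5. Of 15356 genes tested, 1652 rose at 3 DPI (10.8%) and 1452 fell (9.46%), 20.2% in either direction, which sets the background for each gene group below. The rises were steeper than the falls: 228 genes rose and 19 fell by more than 8-fold. All 3 DPI libraries lay above all uninjured libraries for 12.7% of the genes tested, and below them for 11.8%. Over all genes the log2 fold change had a median of 0.066, and scaling by library size alone moved it to 0.229, with 1989 genes rising and 1066 falling, so that the share of rises among the calls went from 53.2 to 65.1%. Label codes are partly tied to injury. Among the 8 libraries, JH135 stands only in the labels of uninjured replicates 1 to 3, and JH133 only in those of 3 DPI replicates 1 and 2. The code JH140 stands in the labels of 1 uninjured and 2 3 DPI libraries, and the meaning of the codes is not given. Within that code 3099 of the 3104 genes called over all 8 libraries kept their sign. Libraries of the code are among the 8, so this agreement was partly fixed in advance and does not test the codes.

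The 4 genes taken as markers of the sorted cells and of myeloid RNA moved in opposite directions. Pax7 (GRCm38 chr4:139737062-139833528, minus strand), the transcription factor that defines MuSCs, had levels of 1234, 1163, 741 and 1336 CPM (counts scaled to library size) in the uninjured libraries and 120, 157, 126 and 176 CPM at 3 DPI, and fell 7.7-fold (log2 fold change -2.94, SE 0.21, edgeR adjusted p = 3.9e-15). Sdc4 (chr2:164424247-164443887, minus strand), a heparan sulfate proteoglycan that presents growth factors to MuSCs, fell 3.77-fold, from 482, 583, 388 and 599 CPM to 91.4, 156, 149 and 143 CPM (log2 fold change -1.92, SE 0.20, edgeR adjusted p = 2.6e-10). For both genes the groups did not overlap, and uninjured replicate 3 was the lowest of its group. Lyz2 (chr10:117277331-117282321, minus strand), the lysozyme of macrophages and other myeloid cells, went from 4.89, 9.14, 6.73 and 0.876 CPM, or 24 counts in all, to 2002, 2549, 2651 and 2394 CPM (log2 fold change 8.77, SE 0.31, edgeR adjusted p = 6.5e-25). Gpnmb (chr6:49036546-49070929, plus strand), a membrane glycoprotein of phagocytic macrophages, rose 79-fold, from 39.1, 28.2, 53.8 and 41.2 CPM to 2355, 2813, 3769 and 3797 CPM (log2 fold change 6.30, SE 0.25, edgeR adjusted p = 3.7e-23). In libraries of many cells, fewer cells of a type and less RNA per cell cannot be told apart, and this holds for every fall and rise given here.

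**Figure D1:**
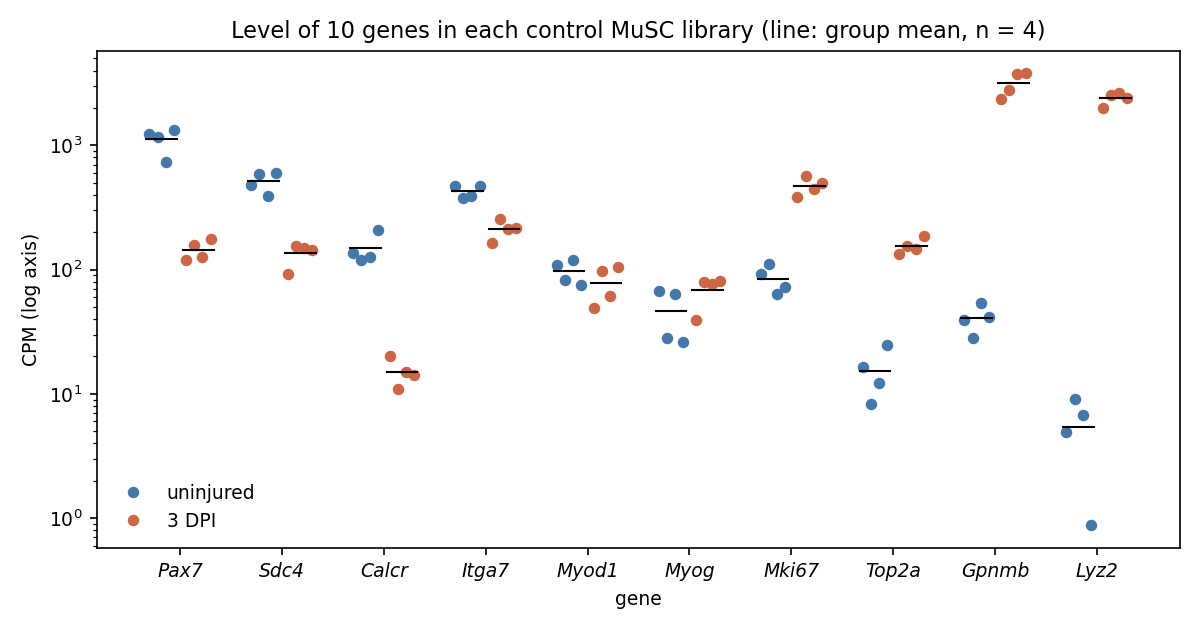
Level of 10 genes in each control MuSC library, in CPM on a log axis, with uninjured libraries in blue, 3 DPI libraries in orange and the mean of each group of 4 as a line. Pax7, Sdc4, Calcr and Itga7 lie lower and Mki67, Top2a, Gpnmb and Lyz2 higher in every 3 DPI library, whereas the groups overlap for Myod1 and Myog.

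Among 24 surface and identity markers of MuSCs, all tested, 16 fell, 2 rose and 6 were not called, with a median log2 fold change of -1.55. Their summed level went from 8380, 8020, 6560 and 9342 CPM to 2841, 3109, 3136 and 3371 CPM. Transcripts of the surface proteins that the sort selects for (α7-integrin, VCAM and CD34) had log2 fold changes closer to 0 than that of Pax7, a difference that was not tested. Itga7, α7-integrin, went from 474, 376, 391 and 475 CPM to 164, 254, 212 and 215 CPM (log2 fold change -1.02, SE 0.19, edgeR adjusted p = 3.9e-05). Vcam1, an adhesion molecule, fell by 1.68 and Cd34, a sialomucin of resting MuSCs, by 1.11 on the log2 scale, and neither overlapped between the groups. Of the myogenic members, Myf5, a determination factor stored as mRNA in quiescent MuSCs, fell 6.16-fold, from 240 ± 46.6 to 38.9 ± 6.83 CPM (SD, n = 4). Cdh15 (M-cadherin), which ties the MuSC to its fibre, fell 3.31-fold. Among the receptors, Fgfr4 fell 6.77-fold, from 780, 767, 739 and 873 CPM to 116, 107, 127 and 115 CPM, and Fgfr1 fell by 2.35 on the log2 scale. Megf10, a receptor that holds MuSCs in the undifferentiated state, fell 6.29-fold. The 2 members that rose were Sdc3, a syndecan that went from 91.3, 144, 88.6 and 137 CPM to 534, 525, 716 and 685 CPM, and Cxcr4, the receptor of the chemokine CXCL12, which rose 1.8-fold. The rise of Cxcr4 was lost within the label code JH140 (log2 fold change 0.24). Pax3, Itgb1, Cdh2, Met, Six4 and Erbb3 were not called.

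Of 40 genes associated with MuSC quiescence, 39 were tested, of which 27 fell, 2 rose and 10 were not called, with a median log2 fold change of -1.92. Their summed level was 16744, 15567, 13193 and 18849 CPM in uninjured and 4413, 4168, 4352 and 4857 CPM in 3 DPI libraries. Calcr, the calcitonin receptor through which the niche holds MuSCs in quiescence, went from 136, 120, 127 and 209 CPM to 20.3, 11, 15.1 and 14.1 CPM (log2 fold change -3.32, SE 0.27, edgeR adjusted p = 1.3e-13). Spry1, an inhibitor of receptor tyrosine kinase signalling, fell 7.57-fold, from 626, 607, 379 and 773 CPM to 76.9, 64.2, 72.7 and 100 CPM. Neither gene overlapped between the groups. Gas1, a growth arrest gene that encodes a GPI-anchored co-receptor, fell 10.4-fold, from 865 ± 246 to 82.7 ± 7.07 CPM (SD, n = 4). Chrdl2, an antagonist of bone morphogenetic proteins, fell 9.55-fold, and the ligand genes Bmp4 and Bmp6 fell by 2.48 and 2.42 on the log2 scale. Tgfbr3, the co-receptor betaglycan, fell 7.5-fold. All 3 FOXO factor genes of the list fell, Foxo1 by 2.40, Foxo3 by 1.48 and Foxo4 by 1.24 on the log2 scale. Col15a1, a basement membrane collagen, fell 3.98-fold, and Col5a3 fell by 2.18 on the log2 scale, whereas Col5a1, a collagen V chain produced under Notch control, had a log2 fold change of -0.26 and was not called. Cdkn1b, which encodes the CDK inhibitor p27, fell 2.34-fold, from 100, 108, 87.4 and 158 CPM to 53.7, 33, 67 and 41.5 CPM. Cdkn1c, which encodes the related inhibitor p57, had overlapping levels of 130, 62.3, 88.6 and 77.1 CPM and 82.7, 101, 97.2 and 66.6 CPM and was not called (log2 fold change -0.04, SE 0.23). The members that rose were Gadd45g, a stress-response gene whose call 9 of 20 alternative analyses lost, and Cd9, a tetraspanin. Cd9 lay at 87 and 88.1 CPM in 3 DPI replicates 1 and 2 and at 205 and 230 CPM in replicates 3 and 4, against 78.5 to 86.4 CPM in uninjured libraries. Replicates 1 and 2 carry the code JH133 in their labels and replicates 3 and 4 carry JH140, and of 20 alternative analyses 11 lost the call of Cd9.

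**Figure D2:**
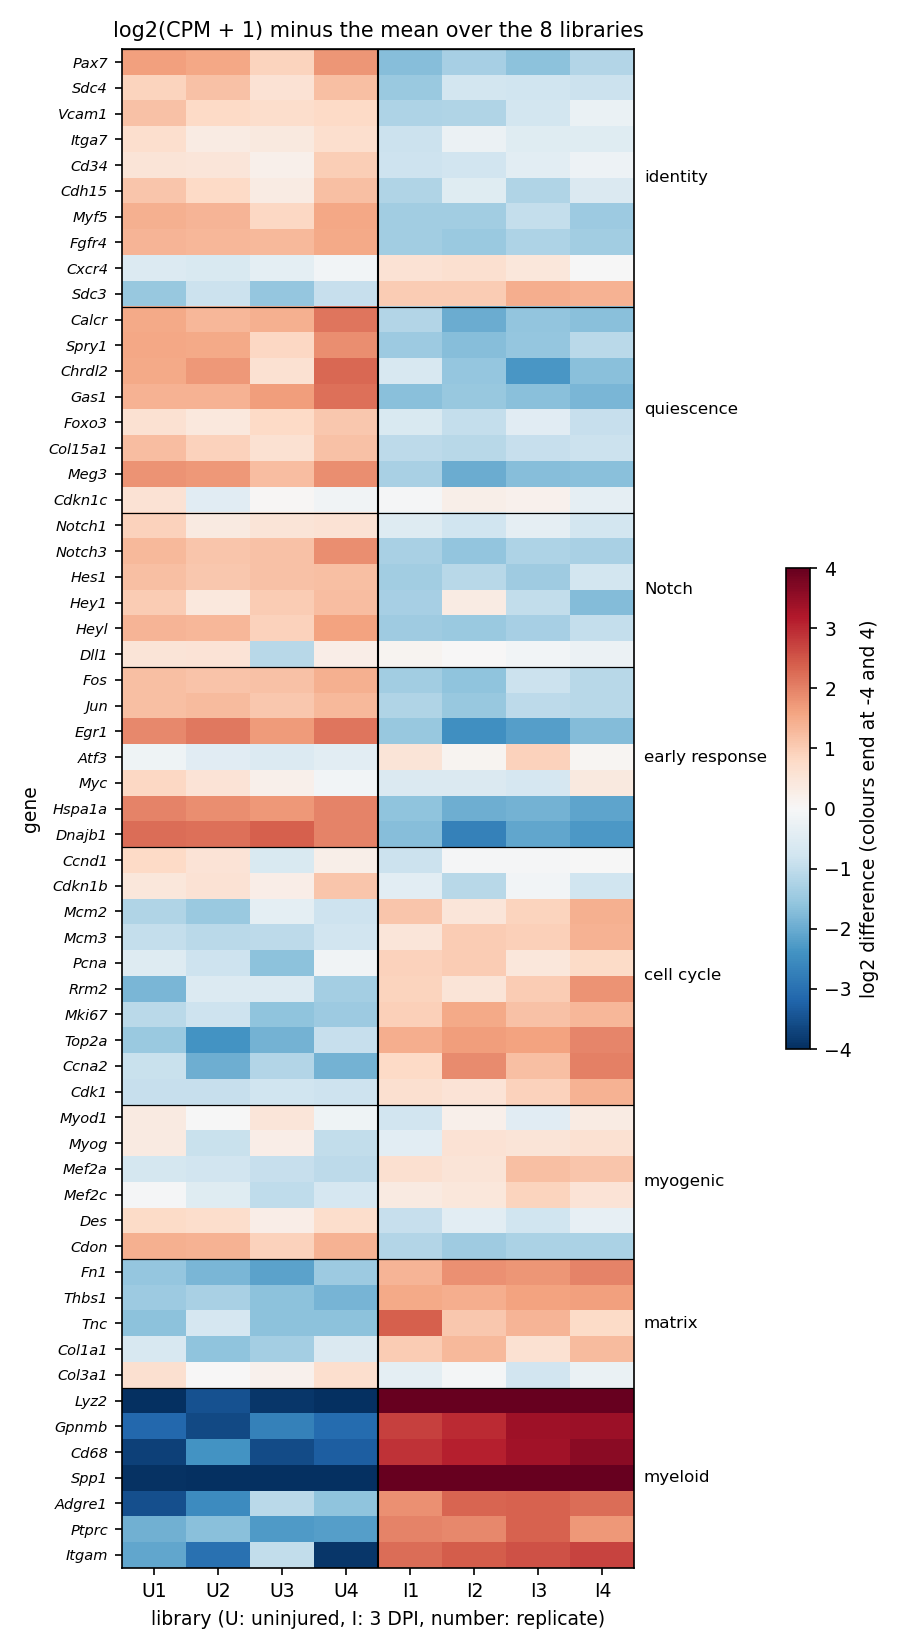
Levels of 59 genes in each library as log2(CPM + 1) minus the gene's mean over the 8 libraries, with red above and blue below that mean, colours ending at -4 and 4, and uninjured (U) and 3 DPI (I) replicates left and right of the line. Most identity, quiescence and Notch genes are red on the left, and myeloid genes and most cell cycle and matrix genes are red on the right.

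Of 28 Notch receptors, ligands, regulators and targets, 10 fell, 3 rose and 15 were not called (median log2 fold change -0.48). Falls made up 35.7%, against 9.46% of all genes tested, and rises 10.7%, against 10.8%. The receptors Notch1, Notch2 and Notch3 fell by 1.21, 1.09 and 2.75 on the log2 scale, and Notch4 was not called. Notch3 was the most reduced, from 1518, 1318, 1372 and 2229 CPM to 248, 204, 258 and 250 CPM. Among the transcriptional targets, Heyl went from 815, 799, 606 and 962 CPM to 119, 112, 126 and 162 CPM (log2 fold change -2.61, SE 0.20, edgeR adjusted p = 4.3e-14). These targets act as transcriptional repressors. Hes1 fell 4.96-fold, from 179, 166, 175 and 182 CPM to 29, 35.8, 28.3 and 46.2 CPM, and Hey1 fell 3.17-fold. Hey1 was less even at 3 DPI, with 53.2 CPM in replicate 2 against 11.8 to 20.8 CPM in the other 3 libraries. Dtx4, an E3 ligase of the pathway, fell 6.01-fold. The ligand Jag1 fell by 0.67 on the log2 scale, and Dll1, Dll4 and Jag2 were not called. Neither Rbpj, the DNA-binding effector, nor the co-activators Maml1, Maml2 and Maml3 were called. The 3 members that rose were Lfng, a glycosyltransferase of Notch (3.33-fold), and the protease genes Adam17 (2.6-fold) and Adam10 (1.61-fold). The call of Adam10 was lost in 14 of 20 alternative analyses.

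Immediate early genes, which encode transcription factors and regulators transcribed within minutes of a stimulus, fell more often than they rose. Of 29 members, 14 fell (48.3%, against 9.46% of all genes), 4 rose (13.8%, against 10.8%) and 11 were not called (median log2 fold change -0.79). Egr1, a zinc finger factor, went from 9180, 10394, 7915 and 10692 CPM to 838, 441, 529 and 732 CPM, a 15-fold fall (SE 0.22 on the log2 scale, edgeR adjusted p = 1.5e-18). Fos and Jun, which pair as AP-1, fell 5.5-fold and 5.35-fold, and Jun went from 5230, 5479, 4884 and 5683 CPM to 999, 802, 1110 and 1062 CPM. Neither Egr1, Fos nor Jun overlapped between the groups. Ier5, a regulator of heat shock factor, rose 6.34-fold, from 20.4, 36.6, 24.7 and 34.2 CPM to 203, 142, 234 and 161 CPM, and Atf3, a stress-induced repressor, rose 1.79-fold. Myc had overlapping levels of 132.8, 110, 85.2 and 68.3 CPM and of 49.3, 49.5, 46.2 and 97.2 CPM and was not called (log2 fold change -0.69). Myc drives growth and entry into the cell cycle. Its fall was called without 3 DPI replicate 4 (-1.04) and without uninjured replicate 3 (-0.80) or 4 (-0.87), and by robust limma (-0.85), whereas within the label code JH140 the log2 fold change was -0.03.

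Heat shock genes, a group gathered after their values were seen, had a high summed level in uninjured libraries, most of it from Hspa1a and Hspa1b. Hspa1a, which encodes an inducible HSP70 chaperone, went from 21304, 19587, 18185 and 21336 CPM to 1782, 1401, 1475 and 1246 CPM. Its neighbour Hspa1b went from 22834, 21614, 20408 and 23573 CPM to 1724, 1252, 1257 and 1205 CPM. The 2 copies are nearly identical, so the split of reads between them is uncertain, and they fell 13.6-fold and 16.3-fold. Dnajb1, an HSP40 cochaperone, fell 21.1-fold, from 1656, 1624, 1836 and 1376 CPM to 107, 52.3, 81.2 and 69.8 CPM, and Hspb1, a small heat shock protein, fell 14.7-fold. Of 25 heat shock proteins, cochaperones and their factors, 13 fell (52%, against 9.46% of all genes), 3 rose (12%, against 10.8%) and 9 were not called. The 3 that rose were Hspa5 and Hsp90b1, the chaperones of the endoplasmic reticulum, by 0.92 and 1.14 on the log2 scale, and Stip1, a cochaperone, by 0.68, a call that 11 of 20 alternative analyses lost. The summed level of the group was 50190 to 57228 CPM in uninjured and 7854 to 9319 CPM in 3 DPI libraries.

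Beside the heat shock genes, Egr1 and Gas1, genes of other kinds were among those of largest fall. Clmn (calmin), a calponin-domain membrane protein, fell 13.3-fold, from 1297, 1538, 1004 and 1539 CPM to 104, 76.1, 115 and 108 CPM. Chodl (chondrolectin), a C-type lectin, went from 554, 581, 740 and 736 CPM to 53.7, 30.3, 69.8 and 72.9 CPM. Neither overlapped between the groups. Arrdc2, Arl4d and Fam132b, which encodes the hormone erythroferrone, fell 12.7-fold, 10.3-fold and 14.5-fold.

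**Figure D3:**
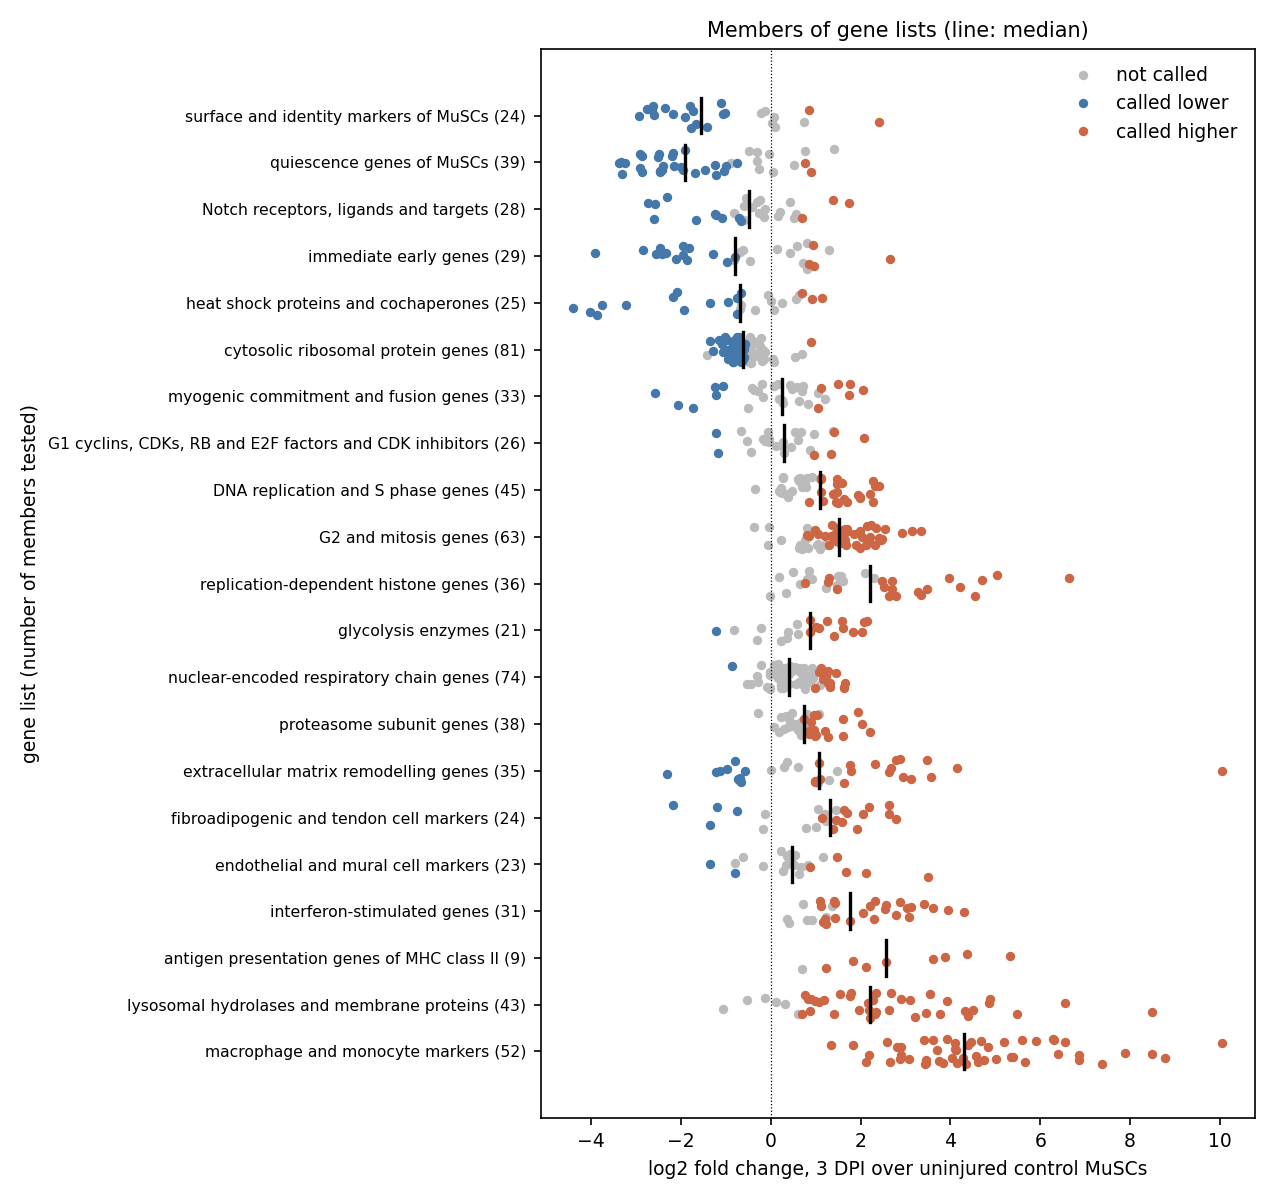
Log2 fold change of each tested member of 21 gene lists, 3 DPI over uninjured control MuSCs, with members that rose in orange, those that fell in blue, those not called in grey and the median of all tested members as a line (the 2 histone genes with no uninjured count have no point). Most identity and quiescence genes lie left of 0, most S phase and mitosis genes right of it, and all 52 macrophage markers tested are orange.

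Genes of cell cycle entry changed unevenly. Of 26 G1 cyclins, CDKs, RB and E2F factors and CDK inhibitors, 4 rose (15.4%, against 10.8% of all genes), 2 fell (7.69%, against 9.46%) and 20 were not called. The rises numbered 7 with scaling by library size alone and 1 within the label code. Ccne1 (cyclin E1), Cdk6, E2f8 and Rb1 rose, and Ccnd3 (cyclin D3) and Cdkn1b fell. Cdk6 went from 13, 19.9, 30.3 and 18.4 CPM to 40.6, 56, 60.4 and 55.6 CPM. Ccnd1 (cyclin D1), which growth factors induce, had levels of 309, 259, 117 and 208 CPM and of 97.2, 172, 170 and 176 CPM, which overlapped (log2 fold change -0.53, SE 0.23). Without uninjured replicate 3, which had the lowest level of its group, Ccnd1 was called lower with a log2 fold change of -0.79. E2f1 and Cdkn1a, which encodes the CDK inhibitor p21, did not overlap between the groups but were not called, with log2 fold changes of 0.95 and 0.61. Both were called higher with scaling by library size alone (1.12 and 0.77) and among genes with at least 10 counts in every library (1.07 and 0.72), and Cdkn1a also without 3 DPI replicate 1 (0.70).

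DNA replication genes rose or were not called. Of 50 DNA replication and S phase genes, 45 were tested, of which 23 rose, 22 were not called and none fell, with a median log2 fold change of 1.10. Here, too, members with few uninjured counts could pass the filter on low counts through the 3 DPI libraries. This count and median are therefore a description. Mcm2 and Mcm3, subunits of the replicative helicase, both rose 3.98-fold. Mcm3 went from 22.8, 20.8, 21.3 and 26.3 CPM to 63.8, 91.7, 87.8 and 118 CPM (log2 fold change 1.99, SE 0.26, edgeR adjusted p = 5.5e-08). Pcna, the sliding clamp of the polymerases, rose 2.8-fold, from 35.9, 28.2, 15.7 and 46.4 CPM to 97.2, 105, 69.8 and 87 CPM. The groups did not overlap for these 3 genes. Rrm1 and Rrm2, the subunits of ribonucleotide reductase, rose 3.24-fold and 4.61-fold, and Uhrf1, which carries DNA methylation through replication, rose 5.01-fold. Within the label code 10 of 48 members tested rose, and the rises of Pcna (log2 fold change 0.65) and Mcm5 (0.93) were lost. No member fell by edgeR, DESeq2 or limma.

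Many genes of G2 and mitosis also rose. Of 63 members, all tested, 46 rose, 17 were not called and none fell by edgeR, DESeq2 or limma (median log2 fold change 1.52), and within the label code 28 rose with a median of 1.78. Members with few counts in uninjured libraries could pass the filter on low counts through the 3 DPI libraries, so the count and median are a description, and 19 rose among genes with at least 10 counts in every library. Mki67 (chr7), which coats mitotic chromosomes and marks cycling cells, went from 92.1, 111, 63.9 and 71.8 CPM to 383, 570, 442 and 502 CPM (log2 fold change 2.48, SE 0.21, edgeR adjusted p = 4.4e-13). Top2a (chr11), the topoisomerase that untangles sister chromatids, rose 10.1-fold, from 16.3, 8.31, 12.3 and 24.5 CPM to 133.4, 156, 147 and 187 CPM. Ccna2 (cyclin A2) rose 8.85-fold, from 9.78, 4.15, 7.85 and 4.38 CPM to 33.4, 72.5, 45.3 and 79.9 CPM. Every 3 DPI library lay above every uninjured library for these 3 genes. Cdk1, the kinase that drives mitosis, rose 3.73-fold, from 8.55 ± 0.382 to 31.9 ± 9.09 CPM (SD, n = 4), and its partner Ccnb1 (cyclin B1) rose 3.96-fold. Foxm1, the factor that activates many mitotic genes, rose 2.68-fold. Aurkb, a kinase of chromosome segregation, overlapped between the groups, and 12 of 19 alternative analyses lost its rise. The members not called included Cdc25b and Cdc25c, phosphatases that activate CDK1, at -0.38 and -0.06 on the log2 scale.

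The summed level of the mitosis list was 1221, 1142, 1374 and 1101 CPM in uninjured and 2915, 3748, 3174 and 3892 CPM in 3 DPI libraries. That of the S phase list was 967 to 1102 CPM and 1915 to 2503 CPM. In the same libraries the summed level of 53 macrophage markers, described further on, went from 386 to 695 CPM to 17221 to 30742 CPM. Cycling MuSCs and cycling cells of other types cannot be told apart in these libraries. Removal of the 171 genes of the myeloid and other immune lists before scaling left 1582 rises and 1426 falls in the whole table. That step takes out those genes only and leaves any RNA of immune cells in the counts of all other genes. Replication-dependent histone genes, whose mRNAs lack a poly(A) tail and are made during S phase, are captured by total RNA libraries. Of 68 such genes, 36 were tested, of which 21 rose and none fell by edgeR, DESeq2 or limma, with a median log2 fold change of 2.20. Members near 0 in uninjured libraries passed the filter on low counts through the 3 DPI libraries, so this count and median are a description. The number that rose was 29 without uninjured replicate 3 and 3 among genes with at least 10 counts in every library. Hist1h2ai went from 8 counts in all uninjured libraries to 30.5, 54.1, 47.2 and 50.2 CPM. Hist1h3d had no count in any uninjured library and 125 counts at 3 DPI, at least 48.1-fold higher than the level of 3 counts over the uninjured group. These histone genes are near-identical copies, and the split of reads among them is uncertain. The summed level of the 68 genes rose least clearly in 3 DPI replicate 1, with 1138 CPM against 1632 to 2470 CPM in the other 3 libraries and 435 to 609 CPM in uninjured libraries.

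Promoters of the cell cycle genes are shown because these genes rose together and because their start sites carry letters known from this class: TTTGAA, the core of the cell cycle homology region, and CCAAT, the box bound by NF-Y. Each sequence runs 5′ to 3′ on the gene's strand from 250 bases before to 50 bases after the start site, as given by RefSeq for GRCm38.p6. Capitals mark matches, on either strand, to the motifs named for each gene and to no other motif. The promoters are Top2a on the minus strand of chr11:99024140-99024439, Mki67 on the minus strand of chr7:135716330-135716629 and Cdk1 on the minus strand of chr10:69352863-69353162, with TTTGAA and CCAAT in capitals. In Mcm3, on the minus strand of chr1:20820263-20820562, the capitals mark CCAAT and the E2F letters TTTCCCGC and TTTGGCGC.
Top2a: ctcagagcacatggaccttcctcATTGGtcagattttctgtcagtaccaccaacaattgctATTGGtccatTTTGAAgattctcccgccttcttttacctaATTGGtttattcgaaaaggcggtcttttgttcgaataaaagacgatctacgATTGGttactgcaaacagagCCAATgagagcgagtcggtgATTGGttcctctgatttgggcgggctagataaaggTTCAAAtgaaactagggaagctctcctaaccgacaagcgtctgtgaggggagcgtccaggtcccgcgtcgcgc
Mki67: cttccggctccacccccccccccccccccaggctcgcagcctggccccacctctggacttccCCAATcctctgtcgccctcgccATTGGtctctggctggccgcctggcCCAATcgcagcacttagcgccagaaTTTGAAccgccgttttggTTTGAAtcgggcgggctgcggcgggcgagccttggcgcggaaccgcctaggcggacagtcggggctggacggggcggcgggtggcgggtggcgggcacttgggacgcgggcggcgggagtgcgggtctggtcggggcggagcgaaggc
Cdk1: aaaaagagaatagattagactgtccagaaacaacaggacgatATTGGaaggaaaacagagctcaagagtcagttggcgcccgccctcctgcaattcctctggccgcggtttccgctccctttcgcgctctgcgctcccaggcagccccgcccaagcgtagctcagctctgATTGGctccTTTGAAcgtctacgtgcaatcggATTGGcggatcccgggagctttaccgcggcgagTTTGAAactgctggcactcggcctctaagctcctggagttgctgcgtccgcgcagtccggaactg
Mcm3: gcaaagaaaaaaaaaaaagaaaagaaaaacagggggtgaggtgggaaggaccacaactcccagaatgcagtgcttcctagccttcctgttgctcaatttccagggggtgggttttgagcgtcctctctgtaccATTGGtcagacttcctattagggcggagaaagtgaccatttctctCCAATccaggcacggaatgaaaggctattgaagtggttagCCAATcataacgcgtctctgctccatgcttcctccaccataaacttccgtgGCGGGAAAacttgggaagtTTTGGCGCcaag

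In Top2a, TTTGAA or its complement starts 179 and 23 bases before the start site, with 6 CCAAT matches from 227 to 58 bases before it. In Mki67 the TTTGAA matches start 116 and 98 bases before the start site, and in Cdk1 they start 71 and 15 bases before it. In Mcm3 the complement of TTTCCCGC starts 19 bases and TTTGGCGC starts 38 bases after the start site. Of the 46 mitosis genes that rose, 36 had a promoter in the table, with 37 promoters in all, of which 29 (78.4%) held TTTGAA and 29 (78.4%) held CCAAT. Over all 32817 promoters of the same length the shares were 17.9 and 37.4%. Of the 16 promoters of mitosis genes that were tested and not called, 11 (68.8%) held TTTGAA and 12 (75.0%) held CCAAT, so the letters did not part the genes that rose from those that did not. Of 23 promoters of S phase genes that rose, 5 (21.7%) held TTTCCCGC or TTTGGCGC, against 1.56% of all promoters and 6 of 21 (28.6%) of S phase genes not called, and 14 (60.9%) held CCAAT. Another 5 motifs were searched on both strands: GTGGGAA (RBPJ), CAGCTG (an E-box), AGAGGAAGT (PU.1), TGACTCA (AP-1) and 1 form of the serum response element. The table had promoters for 6 of the 10 Notch and 23 of the 27 quiescence genes that fell, with Heyl and Hes1 not among them, and GTGGGAA was in 0 of 9 and 0 of 26 of these promoters, against 6.39% of all. Of 46 promoters of macrophage markers that rose, 2 (4.35%) held AGAGGAAGT, against 1.01% of all promoters and 2.5% of those of all genes that rose. CAGCTG was in 1 of 10 promoters of identity genes that fell (16.3% of all promoters), and TGACTCA (5.2% of all) was in 0 of 17 promoters of the 11 immediate early genes that fell and were in the table, which lacked Egr1. The serum response element searched was in 0.064% of all promoters, too few to read in sets of this size. A match describes these letters only, and no match says only that they are not in this window.

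Myogenic commitment genes were called in both directions: of 39 genes, 33 were tested, of which 6 rose, 6 fell and 21 were not called (median log2 fold change 0.25). Their summed level was 3957, 3706, 3305 and 3735 CPM in uninjured and 2666, 2804, 3048 and 3215 CPM in 3 DPI libraries, which did not overlap. Myod1, the factor of activated myoblasts, had levels of 109, 83.1, 119 and 75.3 CPM in uninjured and 49.3, 97.2, 61.4 and 106 CPM in 3 DPI libraries, which overlapped (log2 fold change -0.28, SE 0.23, edgeR adjusted p = 0.465). Myog (myogenin), which starts differentiation, had 67.6, 28.2, 63.9 and 26.3 CPM and 39.2, 78.9, 76.5 and 80.7 CPM, which also overlapped (log2 fold change 0.59, SE 0.29, edgeR adjusted p = 0.145). Within the label code, where uninjured is 1 library, Myog was called higher (log2 fold change 1.47). Relative to Pax7 in the same library, a measure chosen after the values were seen and given with no test, Myod1 was at 0.0885, 0.0714, 0.16 and 0.0564 in uninjured and at 0.41, 0.62, 0.489 and 0.603 at 3 DPI. Myog relative to Pax7 was at 0.0463 ± 0.0309 and 0.474 ± 0.117 (SD, n = 4). The groups did not overlap in either ratio, of which Pax7, the denominator, itself fell. Relative to Itga7, Myod1 overlapped, at 0.159 to 0.304 in uninjured and 0.289 to 0.493 at 3 DPI. Mki67 relative to Itga7, a denominator that itself fell, was at 0.201 ± 0.0656 and 2.25 ± 0.121 (SD, n = 4). Mef2a and Mef2c, partners of the myogenic factors, rose 3.38-fold and 2.16-fold, and Ttn (titin) and Ckb (brain-type creatine kinase) rose 2.07-fold and 3.33-fold. Cdon, a receptor that promotes myogenic differentiation through cadherins, fell 6-fold, from 804, 794, 573 and 800 CPM to 133.4, 112, 126 and 125 CPM, and Des (desmin), the muscle intermediate filament, fell 2.33-fold. Tmem8c (myomaker), which fuses myoblasts, had 48 counts in uninjured and 40 at 3 DPI and was not called, and neither were the embryonic myosin Myh3 and the actins Acta1 and Actc1.

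Adult muscle fibre genes, which report fibre fragments in a sort, were tested in 14 of 20 cases, of which Mylk2 and Pygm fell and none rose by edgeR or DESeq2, whereas robust limma called 1 higher. Myh4 (fast myosin) had 56.2, 36.6, 16.8 and 28 CPM in uninjured and 66.7, 29.4, 68 and 66.6 CPM at 3 DPI and was not called, but was called higher without uninjured replicate 1 (log2 fold change 1.05) and by robust limma (0.90).

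Genes of glycolysis, respiration, the proteasome and the ribosome were called in part. Of 21 glycolysis genes, 12 rose and 1 fell (median log2 fold change 0.88). Eno1 (enolase) rose 4.08-fold, from 108, 149, 80.7 and 108 CPM to 274, 459, 503 and 581 CPM, and Ldha, which makes lactate, rose 2.66-fold. The hexokinases moved apart, with Hk2 rising 3.01-fold and Hk1 falling 2.32-fold, and neither overlapped between the groups. Of 74 nuclear-encoded respiratory chain genes tested, 14 rose (18.9%) and 1 fell, a count of rises that was 8 without 3 DPI replicate 2, 9 without replicate 3 or 4, 3 within the label code and 22 with scaling by library size alone. Of 38 proteasome subunit genes tested, 16 rose, 22 were not called and none fell by edgeR, DESeq2 or limma, with the immunoproteasome subunit Psmb8 rising 3.84-fold. The rises numbered 10 without uninjured replicate 2 and 10 within the label code. Of 81 cytosolic ribosomal protein genes tested, 43 fell, 1 rose and 37 were not called (median log2 fold change -0.61), and 26 fell with scaling by library size alone, 26 with robust limma and 27 without 3 DPI replicate 1. Ribosomal protein genes share reads with many pseudogenes, so that their levels are uncertain. Their summed level was 27973 to 36540 CPM in uninjured and 15552 to 25063 CPM in 3 DPI libraries. Of 49 ribosome biogenesis genes, only Odc1, the first enzyme of polyamine synthesis, rose, while Polr1a, the large subunit of RNA polymerase I, and Nop58, a core protein of small nucleolar particles, fell.

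RNA of macrophages and monocytes was present in every 3 DPI library. Of 53 markers, 52 were tested and all 52 rose, with a median log2 fold change of 4.31 and no overlap between the groups for any of them, against 12.7% of all genes tested. Markers near 0 in uninjured libraries passed the filter on low counts through the 3 DPI libraries, so the count is a description. Their summed level went from 386, 477, 695 and 532 CPM to 17221, 21880, 30742 and 27974 CPM. Among the defining markers, Cd68, a lysosomal membrane protein, rose from 4.89, 14.1, 5.61 and 7.01 CPM to 580, 684, 811 and 962 CPM. Csf1r, the receptor that macrophages need to survive, rose from 17.9, 7.48, 16.8 and 6.13 CPM to 509, 536, 538 and 437 CPM, and Adgre1 (F4/80) rose 19.4-fold. The sort removed cells with CD45 and CD11b on their surface, and the mRNAs of both rose. Ptprc (CD45) went from 13, 15.8, 10.1 and 10.5 CPM to 210, 199, 274 and 177 CPM, and Itgam (CD11b) went from 14.7, 7.48, 32.5 and 3.5 CPM to 313, 357, 387 and 435 CPM (log2 fold change 4.75, SE 0.37, edgeR adjusted p = 9.4e-09). Ctss (cathepsin S), the complement genes C1qa and C1qb, and Mpeg1 (perforin-2) had at most 21.3 CPM in any uninjured library and at least 289 CPM in any 3 DPI library. Tyrobp, the adaptor of myeloid activating receptors, had 2 counts over the uninjured group and 562 at 3 DPI, and no fold is given for it. Lgals3 (galectin-3) and Fabp5, a fatty acid binding protein, rose 84.1-fold and 78.2-fold.

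Spp1 (osteopontin), a secreted protein of the injured tissue, went from 9.78, 6.65, 1.12 and 3.5 CPM to 2615, 3777, 9138 and 8511 CPM (log2 fold change 10.05, SE 0.73, edgeR adjusted p = 2.5e-05). The lower levels of Spp1 were in replicates 1 and 2, with the label code JH133, and the higher in replicates 3 and 4, with JH140. The summed macrophage level, of which Spp1 is a part, was also lower in replicates 1 and 2, and without Spp1 it was 14606, 18104, 21604 and 19462 CPM, and 23 of the 52 markers tested, Gpnmb, Cd68 and Itgam among them, were lower in both of these libraries than in replicates 3 and 4. Another 2 were higher in both, and the rest, Lyz2 and Csf1r among them, were not ordered in this way. The share of all genes tested that are ordered in this way was not measured, so these counts are a description. The part of the label code in these levels was not tested.

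**Figure D4:**
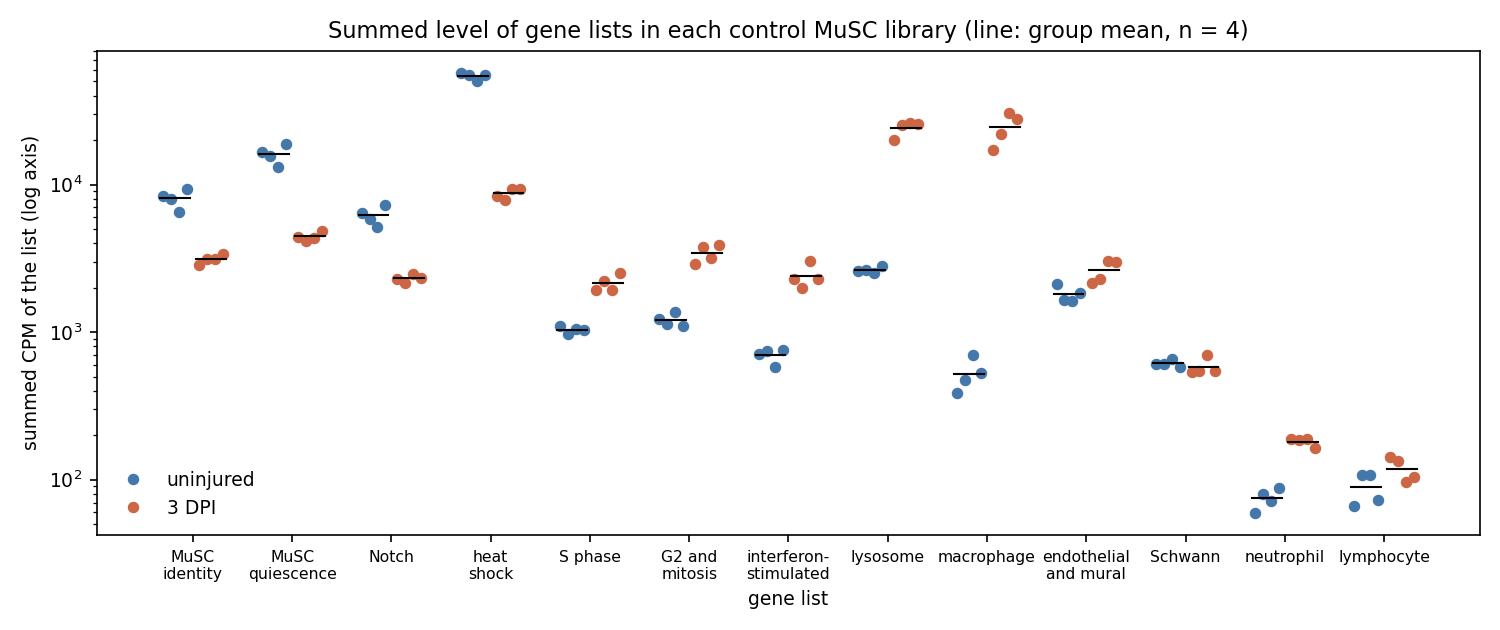
Summed level of 13 gene lists in each library, in CPM on a log axis, with uninjured libraries in blue, 3 DPI libraries in orange and the mean of each group of 4 as a line. Macrophage genes go from 386 to 695 CPM to 17221 to 30742 CPM, while the groups overlap for Schwann cell and lymphocyte genes.

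Most lysosomal and antigen-presenting genes tested and 12 chemokine genes rose. Some of these were already counted as macrophage markers: Cd68, Ctss and Ctsk in the lysosomal list and Ccl6 and Ccl9 in the chemokine list. Of 43 lysosomal genes tested, 37 rose and none fell by edgeR or DESeq2. Lysosomal genes with few uninjured counts could pass the filter on low counts through the 3 DPI libraries, so the count is a description. Ctsf, a cathepsin gene not called at a log2 fold change of -1.08, was called lower by limma-voom, within the label code, with median-of-ratios size factors, with no filter on low counts, with the replicate block and without 3 DPI replicate 2 or uninjured replicate 1. The summed lysosomal level went from 2522 to 2809 CPM in uninjured to 20184 to 26181 CPM in 3 DPI libraries. The proteases Ctsb and Ctsd rose 19.9-fold and 29.5-fold, and Lamp1, a lysosomal membrane protein that most cells make, rose 4.96-fold, from 113, 133.8, 123 and 124 CPM to 521, 555, 701 and 674 CPM. Of 9 genes of MHC class II presentation 8 rose, 4 within the label code and 1 among genes with at least 10 counts in every library. Here, too, members near 0 in uninjured libraries passed the filter on low counts through the 3 DPI libraries, and the count is a description. Cd74, the invariant chain, went from 5.7, 4.15, 7.85 and 12.3 CPM to 286, 324, 334 and 272 CPM. Of 41 chemokine genes, 21 were tested, of which 12 rose and Ccl19 fell, a fall that 13 of 18 alternative analyses lost. Members near 0 in uninjured libraries passed the filter on low counts through the 3 DPI libraries, so the count is a description, and among genes with at least 10 counts in every library 1 rose. Cxcl2, an attractant of neutrophils, went from 6.52, 0, 2.24 and 0.876 CPM to 134.9, 222, 315 and 211 CPM, and Ccl2, an attractant of monocytes, went from 6 counts in all uninjured libraries to 18.9, 37.6, 54.7 and 63.5 CPM. The part of macrophage RNA in these rises was not tested.

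Few markers of other white blood cells were called. Of 14 neutrophil markers in the table, 6 were tested and 1, Csf3r, rose, 4.66-fold to 67.4 ± 8.09 CPM (SD, n = 4), while the defining S100a8 and S100a9 had 6 and 13 counts over all 3 DPI libraries and were not tested. The summed level of the neutrophil list did not overlap, at 59.5 to 87.6 CPM in uninjured and 163.8 to 188.5 CPM in 3 DPI libraries. Of 15 lymphocyte markers in the table, 5 were tested and none was called by edgeR, DESeq2 or limma, with 1 at an unadjusted p under 0.05. Cd3e, of the T cell receptor, had 16 counts in uninjured and 5 in 3 DPI libraries. The summed level of the lymphocyte list was 66.8 to 108 CPM and 96.3 to 142 CPM.

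Interferon-stimulated genes, which cells switch on in response to interferons, rose in 24 of 31 cases and none fell by edgeR, DESeq2 or limma (median log2 fold change 1.77). Members with few counts in uninjured libraries could pass the filter on low counts through the 3 DPI libraries. The count and median are therefore a description. Irf7, a factor that sustains the response, went from 1.63, 6.65, 4.48 and 18.4 CPM to 149, 116, 197 and 167 CPM, and Isg15, a ubiquitin-like protein, went from 3.82 ± 2.58 to 63 ± 24.8 CPM (SD, n = 4). Rsad2 (viperin) rose 8.48-fold, and its levels did not overlap between the groups. Irf1, Mx2, Gbp2, Gbp7, Ifi44, Ifi35 and Xaf1 were not called. The summed level was 577 to 758 CPM in uninjured and 1998 to 3012 CPM in 3 DPI libraries, and the cell type behind it was not tested.

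Extracellular matrix genes changed in both directions: of 36 remodelling genes 35 were tested, of which 18 rose, 10 fell and 7 were not called. The falls numbered 5 with scaling by library size alone and without uninjured replicate 1, and 6 without 3 DPI replicate 2 or 4. Fn1 (fibronectin), a provisional matrix protein to which activated MuSCs bind, rose 11.1-fold, from 198, 163, 131 and 212 CPM to 1492, 2074, 1962 and 2271 CPM. Thbs1 (thrombospondin-1) rose 8.68-fold, from 108, 120, 95.3 and 80.6 CPM to 857, 809, 912 and 937 CPM, while its relative Thbs2 fell 2.2-fold. Tnc (tenascin-C), a matrix protein of injured tissue, rose 7.35-fold and was uneven at 3 DPI, with 492, 199, 243 and 158 CPM. Cd44, the receptor of hyaluronan, rose 6.34-fold. The proteases moved apart, with Mmp14 rising 1.98-fold and Adamts1 and Adamts15 falling 2.33-fold and 4.99-fold. Of 24 markers of fibroadipogenic and tendon cells, which make most of the muscle's matrix, 12 rose and 4 fell (median log2 fold change 1.31), and 15 lay higher in every 3 DPI library than in any uninjured library. Col1a1 (collagen I) rose 4.15-fold, from 431, 222, 266 and 450 CPM to 1353, 1664, 1037 and 1626 CPM. Dpt, Gsn and Loxl1 fell 4.5-fold, 2.55-fold and 2.31-fold. Col3a1 (collagen III) fell 1.69-fold, a call lost without uninjured replicate 1 or 3 DPI replicate 3. Pdgfra, the receptor that defines fibroadipogenic cells, went from 17.9, 39.1, 48.2 and 23.6 CPM to 106, 86.2, 84.9 and 134.8 CPM, and Ly6a (Sca1), which the sort removes, went from 7.33, 4.15, 11.2 and 11.4 CPM to 34.8, 22.9, 37.8 and 32.9 CPM. The summed level of these 24 markers overlapped between the groups, at 7124 to 10404 CPM and 6537 to 9560 CPM, a sum to which Col3a1, which fell, gave a mean of 4891 of 8615 CPM in uninjured libraries.

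Of 23 endothelial and mural cell markers tested, 5 rose and 2 fell. The defining endothelial genes Pecam1 (CD31, removed by the sort), Cdh5 and Kdr were not called, and Pecam1 had 66, 85.6, 58.3 and 159 CPM in uninjured and 74, 108, 149 and 133.2 CPM in 3 DPI libraries. Cdh5 did not overlap, at 59.4 to 140.2 CPM and 143.6 to 197.3 CPM (log2 fold change 0.62), and was called higher with scaling by library size alone (0.79), among genes with at least 10 counts in every library (0.73) and without uninjured replicate 1 (0.75). Summed over the list, levels did not overlap either, at 1632 to 2124 CPM and 2168 to 3046 CPM. To this sum Cd36 alone gave a mean of 47.5 of 1809 CPM in uninjured and 534.9 of 2619 CPM in 3 DPI libraries. The 3 that rose most, Cd36, Plvap and Fabp4, by 3.49, 2.13 and 1.68 on the log2 scale, include Cd36 and Fabp4, fatty acid handling genes that macrophages also make. The contractile genes of mural cells Acta2 and Tagln fell 1.75-fold and 2.56-fold, and the fall of Acta2 was lost within the label code (log2 fold change -0.31) and without uninjured replicate 1 (-0.61) or 3 DPI replicate 2 (-0.70). Of 10 Schwann cell markers tested, none was called by edgeR and 4 had an unadjusted p under 0.05, while DESeq2 and limma-voom called 1 lower and robust limma called 1 higher, and the summed levels overlapped at 577 to 656 CPM and 540 to 701 CPM. Of 7 red blood cell genes in the table, 2 were tested, of which none was called by edgeR, DESeq2 or limma and 0 had an unadjusted p under 0.05. As a measure of background, none of 20 chemosensory receptor genes tested of 1507 was called by edgeR or DESeq2, whereas robust limma called 1 higher and 2 lower. Of them 1 had an unadjusted p under 0.05, and their summed level overlapped at 2388 to 4585 CPM and 3425 to 5099 CPM.

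Imprinted growth genes fell in 9 of 18 tested cases (50%, against 9.46% of all genes) and rose in 2 (11.1%, against 10.8%). Meg3 and Rian, noncoding RNAs of the Dlk1 region on chr12, fell 10.1-fold and 7.8-fold, and Meg3 went from 1951, 1879, 1333 and 2035 CPM to 226, 141, 173 and 175 CPM. Dlk1 itself, at 30 ± 5.98 and 32.9 ± 9.16 CPM (SD, n = 4), was not called. On chr7, H19 rose 3.24-fold while Igf2 fell 1.78-fold, and Peg3 fell 4.6-fold. Of 23 targets of p53 tested, 4 rose, among them Ccng1 and Plk2 (2.31-fold and 2.29-fold), and the inhibitor Mdm2 was not called. The 3 that fell were Btg2, Trp53inp1 and Sesn1, by 7.19-fold, 4-fold and 1.81-fold. The rises numbered 7 with scaling by library size alone and 2 without uninjured replicate 4, and Mdm2 (log2 fold change 0.71) was called higher in 4 of 20 alternative analyses, among them that scaling (0.88) and the one without 3 DPI replicate 2 (0.84). None of the 7 shelterin genes, which protect telomeres, was called by edgeR, whereas DESeq2 and robust limma called 1 lower, and 2 had an unadjusted p under 0.05. Terf2, which encodes TRF2, had 65.2, 87.2, 63.9 and 65.7 CPM in uninjured and 33.4, 45.9, 46.2 and 40.8 CPM in 3 DPI libraries, with no overlap and an edgeR adjusted p of 0.0201 (log2 fold change -0.75, SE 0.25). It was called lower without uninjured replicate 3 (log2 fold change -0.85) and by DESeq2 (-0.80) and robust limma (-0.68).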

How the data were processed

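MuSC RNA was sequenced after ribosomal depletion from 16 libraries, of which the 8 control libraries were analysed, with all 16 used in an alternative only. Trim Galore 0.6.7, STAR 2.6.1d and Salmon 1.5.2 and the build GRCm38 are named in the submitters' processing notes. The deposited values are expected counts, estimated counts per gene that Salmon splits among transcripts that share sequence, so copies of a gene may exchange reads. The library kit adds unique molecular identifiers, and whether they were used to remove duplicate reads is not given in the sources used here. The second deposited table holds the same expected counts rescaled by the authors for transcript abundance, and served as an alternative.

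Counts of 24411 genes were rounded to whole numbers, filtered with filterByExpr, scaled by TMM and tested with edgeR 4.0.16 (R 4.3.3, robust quasi-likelihood test, Benjamini-Hochberg adjustment over the 15356 genes tested). The study's cutoffs were used, an adjusted p under 0.02 and a fold change over 1.5. CPM are TMM-scaled, and SD are over 4 libraries. Totals of 620406 to 1351095 counts limit precision for genes under about 10 counts. On simulated counts of 13836 genes, 87% of changes of 2 and 33% of changes of 1 on the log2 scale were recovered. Only 100 and 91 genes were changed by these sizes, all with at least 10 CPM in uninjured libraries. Far more genes were called in the data, some from lower levels, so these rates may not hold there. Gene positions are from GENCODE M21, where 95.76% of genes matched by symbol.

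Members and gene lists were chosen with earlier results of these data known, and the heat shock list after these values were seen. Named genes are the anchors of each list, the 12 steepest rises and the 12 steepest falls among genes whose average log2 CPM reached 4, and up to 3 called list members of smallest p in each direction. Genes named beyond that rule, as examples of a list or as members not called, were chosen after their values were seen. Alternatives were DESeq2 1.42.0, limma 3.58.1 (robust, as in the study, and voom), other scalings and filters, all 16 libraries in 1 fit, the replicate block, the rescaled table, removal of 171 immune list genes, 1 label code only, and each library left out. No set test was run. No pair of libraries matched within sampling noise (the lowest chi-square per gene between replicates was 2.97). Some genes are not reported here.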

Additional observations from a re-analysis of the deposited data

Results flagged for a closer look

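In groups of 4 libraries, 28 of 442 groups had 1 library farther from the other 3 than Dixon's 95% criterion allows, where chance gives about 1 in 20. All values are in CPM, and the cause of each was not tested. Replicate 1 at 3 DPI was lowest for Myog (39.2 against 76.5 to 80.7), Ccnd1 (97.2 against 169.9 to 176.4), Ldha (213.2 against 331.2 to 349.6), Lgals3 (654.1 against 1208.2 to 1250.9) and the summed lysosomal genes (20184.4 against 25256.5 to 26180.9). The same library was highest for Jag1 (88.5 against 67.9 to 69.8) and Hspa1b (1724.5 against 1204.7 to 1257.2).

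Among the other 3 DPI libraries, replicate 2 was lowest for Myh4 (29.4 against 66.6 to 68.0) and Peg3 (321.1 against 407.5 to 421.0). Replicate 3 was highest for Myf5 (49.1 against 34.5 to 36.3), Gbp7 (103.8 against 58.0 to 63.3), Tagln (83.1 against 50.8 to 54.9), Plk2 (300.1 against 186.2 to 197.5) and the summed Schwann cell markers (701.3 against 539.5 to 547.1). Replicate 4 was highest for Myc (97.2 against 46.2 to 49.5) and lowest for the summed neutrophil markers (163.8 against 185.3 to 188.5).

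Among uninjured libraries, replicate 1 was highest for Vcam1 (382.2 against 280.3 to 294.1) and Rian (507.7 against 321.4 to 349.8). Replicate 2 was highest for Nop58 (143.7 against 65.0 to 77.1), Tnc (58.2 against 28.9 to 29.3) and Terf2 (87.2 against 63.9 to 65.7) and lowest for Dll4 (11.6 against 25.8 to 27.7) and Ccnd3 (164.5 against 208.4 to 215.2). Replicate 3 was lowest for Cdon (572.9 against 794.3 to 804.3), Gbp7 (26.9 against 48.2 to 50.7) and the summed imprinted genes (4918.1 against 6195.4 to 6290.7). Replicate 4 was highest for Ifi44 (14 against 2.24 to 3.32) and lowest for Stip1 (67.4 against 86.3 to 89.6).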

How the results depend on the processing

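No call of a named gene was reversed. Of 4194 values of named genes under the alternatives, 3981 stayed on their side of the threshold, 184 lost the call and 29 gained it. Among 755 other counts of list members, 652 stayed within 1.5 times the main count. Rises, 1652 in the main analysis, numbered 861 with all 16 libraries in 1 fit, 1087 within the label code JH140 and 1088 in the rescaled table, and falls, 1452, numbered 734 with all 16 libraries. S phase genes that rose, 23, numbered 8, 10 and 15 in these 3 settings. Mitosis genes that rose, 46, numbered 23 with all 16 libraries, 28 within the label code and 19 among genes with at least 10 counts in every library. That filter left 6 macrophage markers called of 52, since it drops genes near 0 in uninjured libraries. The cause of the other shifts was not tested. The label code leaves 1 uninjured library, which is assumed to vary like the other 2. Leaving out each library in turn gave 1381 to 1640 rises and 1197 to 1704 falls (both highest without uninjured replicate 3), 18 to 21 S phase, 36 to 45 mitosis and 51 to 53 macrophage genes that rose, and 16 identity, 26 to 28 quiescence, 8 to 10 Notch and 14 to 16 immediate early genes that fell.

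Same-numbered libraries did not deviate together (correlations of -0.0881, -0.0385, -0.1 and -0.000824). With so few libraries these values cannot exclude a pairing of small effect. With the replicate number as a block, 1538 genes rose and 1299 fell, with 16 identity, 27 quiescence, 8 Notch and 14 immediate early genes lower and 20 S phase, 43 mitosis and 52 macrophage genes higher. Removing the immune list genes gives no value for the 6 lists removed. Depth limits the genes near 0 in uninjured libraries, whose fold changes depend on the small prior count of edgeR's fit. A prior count of 2 was used for log2 CPM values only.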
